A study of Rattus norvegicus with 12 samples.

Results

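The comparison described here set T9 spinal cord of rats that received epidural electrical stimulation after injury against T9 cord of rats with the injury alone. It was defined by the sample labels: the 4 stimulated and 4 injured libraries, which are 8 of the 12 libraries of the series. All animals were Sprague Dawley rats, an outbred laboratory strain. Both groups had a hemisection, a cut through one side of the cord, in the mid-thoracic segment T9, and tissue was taken 5 days later. In the stimulated group electrodes over the lumbosacral cord (L2 to S1) had delivered current from outside the dura, so the measured tissue was the lesion level and not the stimulated segments. The other 4 libraries came from uninjured T9 cord and are used here as the background level. Sex, age, the stimulation protocol and any sham implant are unstated in the labels. Nor is it stated that each library was a separate animal, so the p-values reflect spread among libraries that may be technical.

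Epidural stimulation of the lumbosacral cord is used to raise the excitability of locomotor circuits below a spinal lesion, mainly through large sensory fibres that enter by the dorsal roots. The lesion itself is in its subacute phase at this time: neurons and myelin-forming cells near the cut are lost, microglia and invading macrophages take up debris, and astrocytes begin to form a border. Bulk RNA mixes all these cells, and a lower level from fewer cells of a type cannot be told apart from less RNA per cell. The deposited table gives genes by Ensembl identifier alone. The reference table used here matched 0 of these identifiers to a symbol, so the tissue could not be checked against marker genes, no gene family is described, and 4 genes are named by identifier. The table held 32883 genes, and 5285 passed the filter on low counts and were tested.

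Depth differed between the 2 groups. The stimulated libraries held 204836, 306186, 288980 and 240992 counts in replicates 1 to 4, and the injured libraries held 510260, 400029, 399386 and 553986. Means were 260248 ± 46105 and 465915 ± 78507 counts (SD, n = 4 each), with no overlap (exact permutation test, two-sided, p = 0.0286, which is the floor of a 4 against 4 design, and adjusted p = 0.0572 over 4 measures). The highest count was 4059 to 4094 in stimulated and 4092 to 4094 in injured libraries, close to 4096, the number of different molecular identifiers of 6 bases. The 10 most abundant genes of each library held 11.1%, 10.01%, 9.86% and 11.6% of counts in stimulated libraries and 7.05%, 8.11%, 8.68% and 6.45% in injured ones, again without overlap (p = 0.0286 in the same exact test, adjusted p = 0.0572). Factors that scale libraries by the bulk of their genes (TMM) were 0.923 to 0.989 in stimulated and 1.02 to 1.14 in injured libraries. A group effect and a depth effect on the most abundant genes cannot be told apart by design.

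No gene changed between stimulated and injured cord at the threshold used. Of 5285 genes, 0 had a Benjamini-Hochberg adjusted p under 0.05 in edgeR's quasi-likelihood test (0.00%). The lowest adjusted p of any gene was 0.485. In the same fit 1692 genes (32.0%) passed between injured and uninjured cord and 1825 (34.5%) between stimulated and uninjured cord. The 3 contrasts share libraries, and the difference between these numbers was not tested. At unadjusted p under 0.05, 251 genes were higher (4.75%) and 240 lower (4.54%) in stimulated cord, where 264 in all would be expected with no change. That balance depends on scaling: with total counts in place of TMM factors, which shifted the median log2 fold change of all genes by -0.139, the numbers were 113 higher and 449 lower. DESeq2 called 1 gene, higher in stimulated cord, with a log2 fold change of 0.75 (DESeq2 adjusted p = 0.00915, the other genes all above the threshold). The same gene had a log2 fold change of 0.72 and an unadjusted p of 0.00703 in edgeR's fit. limma-voom with sample weights called 0 genes, with 483 at unadjusted p under 0.05. With no filter, edgeR tested 18333 genes and called 28, 14 in each direction, among them the 4 genes named below. Of the 28, 23 passed the filter, and each had an edgeR adjusted p of 0.485 in the filtered fit. The 4 named genes were chosen as extremes of these data, so their calls here are no support.

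Fitted differences were mostly small. The middle 50% of log2 fold changes lay between -0.294 and 0.298, and the whole range was -1.75 to 2.42. A fitted change of 2-fold or more was reached by 74 genes toward stimulated cord (1.40%) and 82 genes toward injured cord (1.55%). The fit uses a prior count of 2, which draws log2 fold changes toward 0, most at low counts. Against these 156 genes, DESeq2 gave 251 and limma-voom with sample weights 215. In 119 genes (2.25%) all 4 stimulated libraries lay above all 4 injured libraries in CPM, counts scaled to a common library size, and in 136 genes (2.57%) they all lay below. Of these 255 genes, 164 averaged at least 20 raw counts over the 8 libraries. They had a median log2 difference of 0.68 in size, and 29 of them reached 2-fold. The 10 highest of them had log2 fold changes of 1.13 to 2.25 and the 10 lowest -1.53 to -1.14, each with an edgeR adjusted p of 0.485. Identifiers are given below for the first 2 in each direction.

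**Figure D1:**
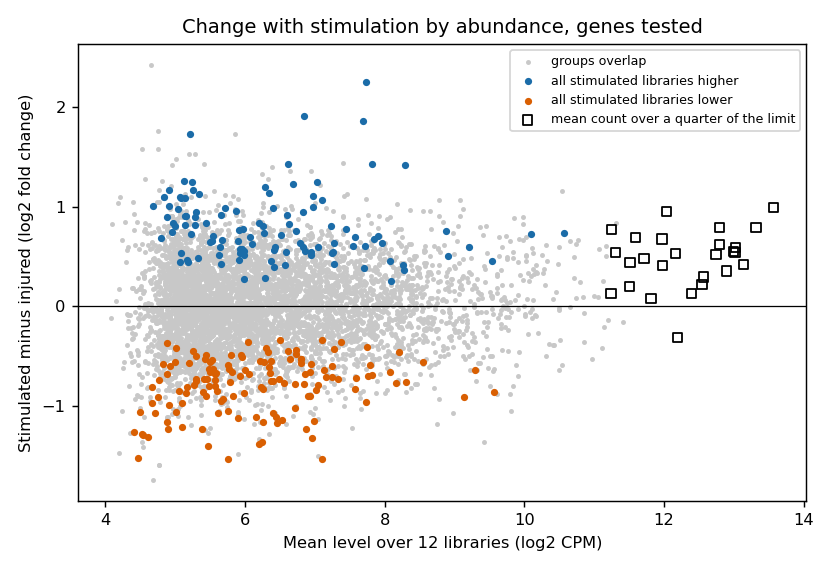
Log2 fold change of stimulated against injured cord (y axis) by mean level over 12 libraries in log2 CPM (x axis), 1 point for each of 5285 genes. Blue and orange points are genes whose 4 stimulated libraries all lie above or all below the 4 injured ones, and open squares, not coloured by group separation, mark 26 genes with a mean count over 1024, 25 of which lie above 0.

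ENSRNOG00000015553 had the largest difference toward stimulated cord among the genes with separate groups. Its level was 1860, 330, 305 and 251 CPM in stimulated replicates 1 to 4 and 121, 101, 226 and 107 CPM in the injured ones. Every stimulated library was above every injured one, but replicate 1 alone was several times higher than the other stimulated libraries. Group means were 687 ± 784 and 139 ± 58.7 CPM (SD, n = 4 each), and the fit put the log2 difference at 2.25 with an SE of 0.59 (edgeR adjusted p = 0.485). Without stimulated replicate 1 it was 1.06. Uninjured cord held 121, 181, 306 and 56.7 CPM, a range that covers the injured libraries and reaches the lower stimulated ones. Against uninjured cord the log2 fold change of stimulated cord was 1.99 (edgeR adjusted p = 0.0143), and it was 0.80 without stimulated replicate 1 (adjusted p = 0.165). The gene was picked for high levels in these stimulated libraries, which favours this difference, so its p-value is no independent support.

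ENSRNOG00000029145 came next. Stimulated libraries held 222, 152, 258 and 381 CPM, injured libraries 20.2, 133, 41.8 and 61.6 CPM, and uninjured libraries 198, 62.7, 156 and 49.6 CPM. The stimulated and injured groups were separate by a narrow gap, between stimulated replicate 2 and injured replicate 2, and the uninjured libraries spread across both. Stimulated against injured cord gave a log2 difference of 1.91 with an SE of 0.48 (edgeR adjusted p = 0.485), and leaving out a library gave 1.61 to 2.43. Against uninjured cord neither injured cord (log2 fold change -0.81, edgeR adjusted p = 0.213) nor stimulated cord (1.10, adjusted p = 0.0848) passed the test. Leaving out a library gave -1.36 to -0.49 for the first and 0.84 to 1.41 for the second. Of these fits, the first passed only without injured replicate 2, the highest injured library (-1.36, edgeR adjusted p = 0.0388). The second passed only without uninjured replicate 1 (1.41, edgeR adjusted p = 0.0417). The gene was picked by these stimulated and injured libraries, which favours both differences.

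In the other direction, ENSRNOG00000005695 was at 79.4, 311, 101 and 238 CPM in stimulated and 369, 616, 760 and 428 CPM in injured libraries. The highest stimulated library lay just under the lowest injured one. Means were 182 ± 111 and 543 ± 179 CPM (SD, n = 4 each), a log2 fold change of -1.53 (SE 0.47, edgeR adjusted p = 0.485). Uninjured cord held 44.5, 15.7, 6.12 and 63.8 CPM, below every library of both injured groups. The gene rose against uninjured cord by a log2 difference of 3.90 ± 0.53 (SE) in injured cord (edgeR adjusted p = 5.17e-05) and of 2.37 ± 0.51 (SE) in stimulated cord (edgeR adjusted p = 0.00171). These contrasts share libraries with the comparison of the 2 injured groups. The gene was picked by that comparison, which favours a larger rise in injured and a smaller one in stimulated cord. With 1 component of the within-group variation as a covariate, a fit whose p-values are too small because the component comes from the same residuals, stimulated against injured cord gave -1.72 (edgeR adjusted p = 0.0391).

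ENSRNOG00000010219 was less abundant. Its raw counts were 1, 9, 4 and 12 in stimulated and 34, 27, 30 and 68 in injured libraries, or 5.29, 29.7, 14.4 and 52.0 CPM against 62.4, 65.2, 73.8 and 107 CPM. Uninjured libraries held 48.6, 31.4, 27.5 and 39.0 CPM, within the span of the stimulated ones and below the injured ones. The log2 fold change between stimulated and injured cord was -1.41 (SE 0.38, edgeR adjusted p = 0.485). Injured against uninjured cord gave 1.00 (edgeR adjusted p = 0.0408), a call that was lost without uninjured replicate 2, 3 or 4 or injured replicate 2, 3 or 4, where adjusted p was 0.051 to 0.138. Stimulated against uninjured cord gave -0.41 (edgeR adjusted p = 0.468). The gene was picked for injured levels above the stimulated ones, which favours a rise in injured cord, so that call is no independent support.

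**Figure D2:**
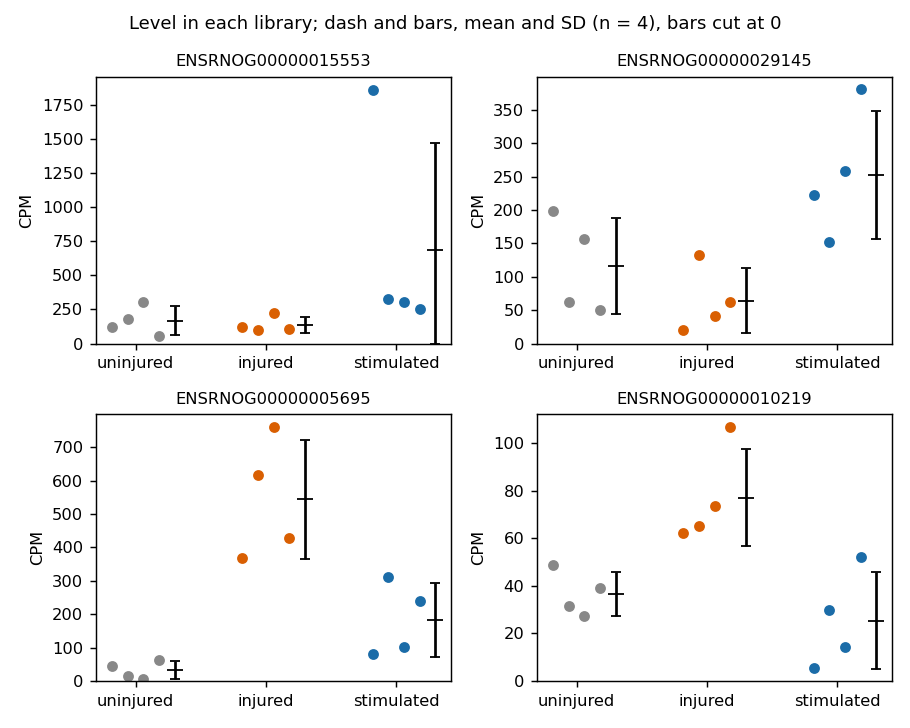
Level of the 4 named genes in CPM (y axis) in each uninjured, injured and stimulated library (points, in replicate order), with group mean and SD (n = 4, bars cut at 0). The upper genes are higher and the lower genes lower in all 4 stimulated than in all 4 injured libraries, and 1 stimulated library of ENSRNOG00000015553 lies at 1860 CPM.

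Under all 5 scalings tried (TMM, median-ratio factors, total counts, TMM without genes over 1024 counts, and counts corrected for identifier collisions) 60 genes stayed higher and 122 stayed lower in stimulated cord. Total counts, which shift all genes toward injured cord, gave 63 higher genes, and the other 4 scalings gave 101 to 124, so this setting fixes most of the loss of higher genes. The median size of the log2 difference over these 182 genes was 0.80. Each library was also thinned to 204836 counts in a single random draw, which was used for every value at equal depth. Fewer genes then passed the filter, and 92 of the 119 higher and 100 of the 136 lower genes were among them. Of these, 53 and 59 were still separate in the same direction. In all, 205 of the 3858 genes tested after thinning had separate groups, so other genes became separate.

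The most abundant genes were shifted toward stimulated cord. Among the 100 most abundant genes, 71 had a higher and 29 a lower fitted level in stimulated cord, with a median log2 fold change of 0.297. At unadjusted p under 0.05, 13 of the 100 were higher and 0 lower, and 9 were higher in all 4 stimulated libraries, against 2.25% of all genes tested. Of these 9 genes, 8 averaged over 1024 raw counts. Among the other 74 of the 100, 1 gene (1.35%) was higher in all 4 stimulated libraries, and 6 were higher and 0 lower at unadjusted p under 0.05. The next 900 genes had a median of 0.024, with 41 higher and 42 lower at unadjusted p under 0.05. The other 4285 genes had a median of -0.006, with 197 and 198.

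This shift was largest at high raw counts. In the 26 genes that averaged over 1024 raw counts, log2 fold changes ranged from -0.31 to 0.99 with a median of 0.52, and 25 of 26 were higher in stimulated cord. The 12 genes over 2048 were all higher (median 0.54), and 7 of the 12 were higher in all 4 stimulated libraries. Of the 26 genes, 8 were higher in all 4 stimulated libraries with TMM factors. All 8 stayed so after thinning to equal depth, but only 2 did under all 5 scalings. The median fell to 0.089 in the 41 genes between 512 and 1024 and to 0.059 in the 130 between 256 and 512. The 74 genes of the top 100 that were not over 1024 had a median of 0.18, with 46 higher. A correction was tried on the assumption, drawn from the count limit alone, that each count is a number of different 6-base identifiers. If it does not hold, the corrected values have no meaning. With molecules estimated from the share of the 4096 identifiers seen, the median of the 12 genes over 2048 was 0.091 with 8 higher, and that of the 14 genes between 1024 and 2048 was 0.335 with 10 higher. Close to the limit this estimate is unstable, because a few identifiers more or less change it greatly.

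The single most abundant gene shows the limit most directly. It was the same gene in all 12 libraries, and its raw count was all but constant, so its level per total count followed depth: 19820, 13370, 14160 and 16880 CPM in stimulated and 8019, 10230, 10250 and 7390 CPM in injured libraries. Its log2 fold change with total counts as the scale was 0.84, and the log2 ratio of the mean totals was also 0.84. With a raw count that hardly varies, these values match by arithmetic. Relative to their means over 12 libraries, the 26 genes had a median log2 level of 0.103 to 0.444 in stimulated libraries and of -0.55 to -0.033 in injured ones. The lowest value was in injured replicate 4, the deepest library of all, but the order did not follow depth throughout. Stimulated replicate 1, the shallowest library, was at 0.193 and stimulated replicate 4 at 0.444. In uninjured replicates 1 to 4 the values were 0.475, -0.114, 0.214 and -0.13 at 254762, 450114, 351524 and 272817 counts, so replicates 2 and 4 were close in level and far apart in depth. The part of depth in these levels was not tested.

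**Figure D3:**
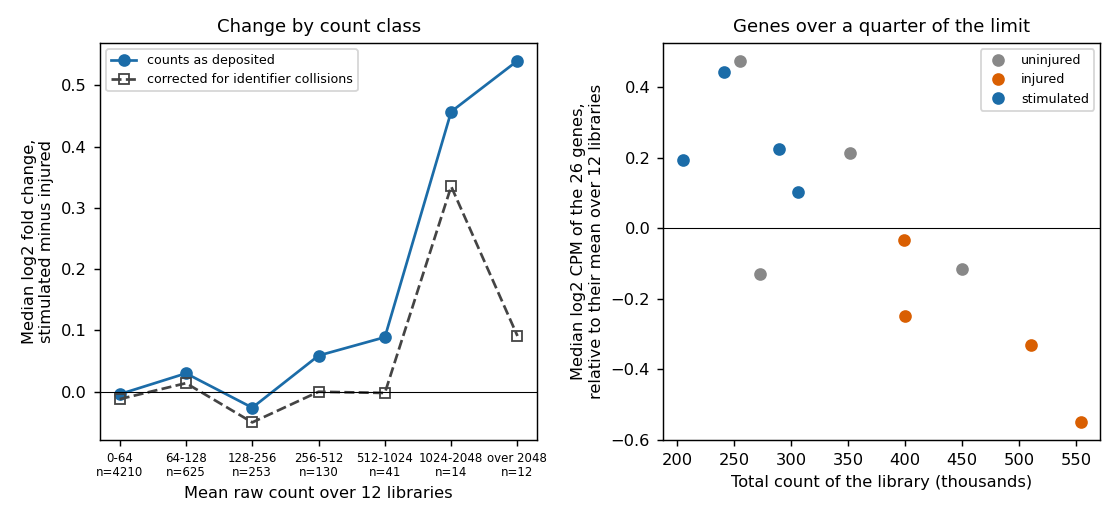
Left, median log2 fold change of stimulated against injured cord (y axis) for genes grouped by mean raw count over 12 libraries (x axis, with the number of genes), from counts as deposited (circles) and corrected for identifier collisions (squares). Right, median log2 CPM of the 26 genes over 1024 counts relative to their own means (y axis) against the total count of each library (x axis). As deposited the median is highest in the last class, at 0.54, and after correction it is 0.335 in the class before and 0.091 in the last, and injured libraries lie below 0.

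Standard errors differed little with abundance, but the prior count of the fit makes them smaller at low counts. The limma-voom intervals were wider in the least abundant genes. Their median width in log2 units was 1.27 in the 100 most abundant genes, 1.31 in the next 900 and 1.6 in the others. The median gene had a mean of 24.9 raw counts over the 8 libraries and a standard error of 0.336 on its log2 fold change. The median standard error was 0.313 in the 100 most abundant genes and in the next 900, and 0.341 in the others. The 95% interval of limma-voom lay within 2-fold in both directions for 46 of the 100 most abundant genes, for 461 of the next 900 (51.2%) and for 1452 of the other 4285 (33.9%). For 314 genes (5.94%) the interval reached a 4-fold change in at least one direction, and 293 of these were in the lowest tier. For these genes a change of that size lay within the interval.

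Few genes were present in all libraries of either group and absent from the other. Over the whole table, 9 genes had counts in all 4 stimulated libraries and none in any injured library, with at most 9 counts summed over the group. A count of 0 in the injured group allows a level of up to 1.61 CPM, and in the stimulated group 2.88 CPM (3 counts of the summed totals, counting error only). The opposite pattern was seen for 32 genes, with 4 to 20 counts summed over the injured libraries, and 0 of these 32 passed the filter. At equal depth the numbers were 11 and 13. Genes with a count in any stimulated and in no injured library numbered 1921 as deposited and 2414 at equal depth. The reverse held for 1918 genes as deposited and for 1259 at equal depth. This difference was not tested. Genes detected at that depth numbered 10970, 10944, 10909 and 10188 in stimulated and 10326, 10134, 10473 and 10677 in injured libraries, a mean difference of 350 genes that did not pass (exact two-sided permutation p = 0.171, adjusted p = 0.228 over 4 measures). At 0.5 of that depth the difference was 71.5 genes (exact two-sided permutation p = 0.686, adjusted p = 0.686).

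Similarity between groups overlapped with that within them. Pearson correlations of log2 CPM over the genes tested were 0.787 to 0.932 in the 16 pairs of a stimulated with an injured library (median 0.859). They were 0.827 to 0.902 in the 6 pairs of stimulated libraries (median 0.855) and 0.840 to 0.902 in the 6 pairs of injured libraries (median 0.894). The closest pair was stimulated replicate 2 with injured replicate 2, and 3 pairs across the groups were closer than every pair within either group. The least alike pair was stimulated replicate 1 with injured replicate 4, which are the shallowest and the deepest library. These correlations are across genes, which are not independent, and describe the libraries.

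**Figure D4:**
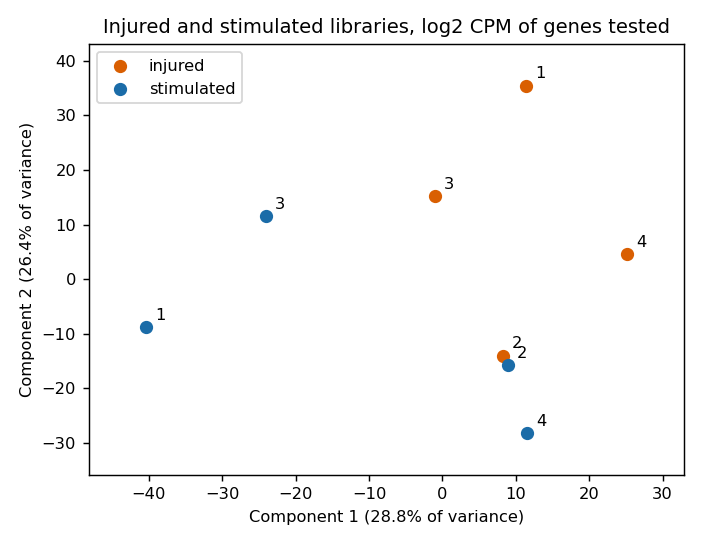
Scores of the 8 libraries on the first (x axis, 28.8% of variance) and second (y axis, 26.4%) principal components of log2 CPM, with replicate numbers beside the points. The groups overlap on both axes in these unthinned counts, and replicate 2 of both groups lies close together.

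The first principal component of the 8 libraries held 28.8% of the variance and the second 26.4%. On the first, stimulated replicates 1 and 3 lay at -40.3 and -24.0 and the other 6 libraries between -0.98 and 25.1. The stimulated libraries thus sat at one end and within the injured range. After thinning to equal depth the stimulated libraries scored -35.6, 1.07, -19.95 and -0.57 on the first component in replicates 1 to 4, and the injured libraries 24.0, 1.61, 2.90 and 26.6. Every stimulated library then lay below every injured one, by a narrow gap between replicate 2 of both groups. The thinning was a single random draw, and whether the gap holds in other draws was not tested. On the second component injured replicate 1 was highest, at 35.5, and stimulated replicate 4 lowest, at -28.3. In the deposited counts the groups overlapped on both components.

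The median SD of log2 CPM over 4 libraries was 0.467 in stimulated, 0.397 in injured and 0.473 in uninjured cord, and the SD was larger in stimulated than in injured cord for 3230 of 5285 genes. The difference of 0.07 between the 2 injured groups was 0.032 without stimulated replicate 1 or 3, 0.034 without stimulated replicate 4 and 0.11 without injured replicate 1. At equal depth the medians were 0.456 and 0.434, and 2806 genes had the larger SD in stimulated cord. The number of genes at unadjusted p under 0.05 depended on single libraries. It was 298 without injured replicate 1, where the smallest edgeR adjusted p was 0.828, and 659 without injured replicate 2, where it was 0.12.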

How the data were processed

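CEL-Seq2 libraries, which tag transcripts near their 3' ends, were made from flash-frozen T9 cord, per the labels' protocols. The authors deposited raw counts for each gene in 1 table. HISAT2 2.0.4, HTSeq 0.6.0 and the build Rnor_6.0 are listed without roles, per the submitters' processing notes. The sources used here do not give the annotation release, the strand setting or any collapsing by molecular identifier, so overlapping and near-identical genes may share counts.

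The analysis used edgeR 4.0.16 under R 4.3.3: filterByExpr with the group, which kept 92.6% to 93.9% of each library's counts, TMM factors, and a robust quasi-likelihood fit across all genes and 12 libraries with group as the only term (9 residual degrees of freedom). A prior count of 2 was used for log2 CPM. Standard errors were derived from each of these log2 fold changes and the root of its F statistic, so they are made smaller in the same way. Intervals came from limma 3.58.1 with voom. The fit was tested on simulated data. Those counts were drawn independently for each gene and without a count limit, so that test does not cover either feature of these data. Replicates all differed by more than counting noise (3.76 to 10.9 chi-square units per degree of freedom in the 12 pairs). Alternatives included DESeq2 1.42.0.

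The named genes are the 2 with the highest and the 2 with the lowest log2 fold change among genes with a mean count of 20 or more over the 8 libraries and groups that did not overlap. With no symbols, the 40 gene lists and marker lists drawn up were not used. Comparisons, rules and lists were chosen with earlier results of these data known.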

Additional observations from a re-analysis of the deposited data

Results flagged for a closer look

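Of 26 sets of 4 values examined in the stimulated and injured groups, 3 had a library that stood apart by Dixon's 95% criterion. The criterion takes the gap to the nearest other library as a share of the range. Chance gives about 1.3 if no set was chosen by its values. Some sets are levels of the named genes, which were chosen from these data, so that number does not hold for them. For ENSRNOG00000015553, stimulated replicate 1 held 1860 CPM, while its group's other libraries ranged from 251 to 330 CPM, a gap of 0.951. Injured replicate 3 held 226 CPM of this gene, against 101 to 121 CPM in the remaining injured libraries (gap 0.84). Stimulated replicate 4 had 10188 genes detected at equal depth and the other stimulated libraries 10909 to 10970 (gap 0.922). Without it the mean difference from injured cord was 538.5 genes (exact two-sided permutation p = 0.0571).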

How the results depend on the processing

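The 4 named genes kept their direction between stimulated and injured cord under every alternative in which they were tested. Their choice by separate groups and extreme log2 fold changes all but fixed this in advance, so it is no support. With no low-count filter the edgeR test had 28 calls, of which 23 had passed the filter and had adjusted p of 0.485 in the filtered fit, and all 4 named genes were among the 28. That setting gave 568 genes with separate groups and 377 changed at least 2-fold among 18333 tested. DESeq2 called 1 gene, with 251 changed at least 2-fold. The within-group component as covariate gave 2 calls. Leaving out each library gave 0 to 1 calls, the 1 without stimulated replicate 3, and that gene was not among the 5285 tested with all libraries. Leaving out each library gave 256 to 624 genes with separate groups. That number rises by construction when a stimulated or injured library is left out. It was 426 without injured replicate 3 and 624 without injured replicate 2, and 403, 594, 512 and 514 without stimulated replicates 1 to 4. Without an uninjured library it was 256 to 277, where the genes tested changed but not the libraries compared. Genes changed at least 2-fold numbered 115 to 328 (328 and 238 without injured replicates 2 and 3, and 301, 249 and 255 without stimulated replicates 2, 3 and 4). A mean count of 20 left 154 and 81 of 3113 genes, and thinning left 99 genes changed 2-fold of 3858. For the 26 genes over 1024 counts the median log2 fold change was 0.38 with total counts and 0.25 after collision correction (main value 0.52), and the cause was not tested. The replicate number as a replicate block gave 0 calls with a smallest adjusted p of 0.457, and 495 genes at unadjusted p under 0.05 against 491. Deviations of same-numbered stimulated and injured libraries correlated at 0.066, 0.116, 0.276 and 0.291. Of 4 stimulated libraries 2 correlated best with their own number, so the numbers were not taken as pairs. Stimulated replicates 1 and 2 correlated best with injured replicates 3 and 4 (0.176 and 0.217). On the within-group component, replicates 1 to 4 scored -0.189, 0.172, -0.162 and 0.178 in injured libraries. The stimulated ones scored -0.261, 0.221, -0.3 and 0.339. Replicates 1 and 3 thus shared a side in both groups, while uninjured replicates 1 and 4 did so. The source of this split was not tested. Lists of genes were not tested under any setting for lack of symbols.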
